A study of Mus musculus with 16 samples.

Results

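Splenic follicular B cells are described here in 4 libraries of CD45+ spleen cells. A cell barcode was taken as a member when it held at least 1 raw UMI (unique molecular identifier, 1 per captured RNA molecule) of Cd79a and at least 1 of Fcer2a. It also had to hold no UMI of Cd3e, Cd3d or Cd3g, at most 2 of Lyz2, and none of Mki67, Top2a, Rrm2 or 2810417H13Rik. Of 8686 splenic CD45+ barcodes, 4045 were members, out of 37609 barcodes in the whole series. The cells were thus chosen by their measured UMIs of these genes, whose levels are descriptions and carry no test.

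The series measured single-cell RNA in MC38 colon carcinoma tumors and in spleens of mice with and without Aire, a gene best known for its work in the thymus, to ask how its loss and PD1 blockade shape immune cells in tumor-bearing mice. Both *Aire*+/+ and *Aire*-/- mice were C57BL/6 per the labels, littermates from the Jackson Laboratory, 8 weeks old, and carried MC38 tumors under the skin. They received a blocking anti-PD1 antibody or its isotype control at 5 mg/kg, and tissue was harvested on day 19. Spleens of several mice were pooled before sorting, so each condition is 1 library with no replicate, and differences between conditions carry no replicate check. Where 4 values follow each other, the *Aire*+/+ libraries come first (isotype, then anti-PD1) and the *Aire*-/- libraries second (isotype, then anti-PD1).

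Follicular B cells are the recirculating, resting majority of mature B cells, and in the spleen they fill the follicles beside the T cell zones. They carry both IgM and IgD, the low-affinity IgE receptor CD23 that Fcer2a encodes, and CCR7 for traffic through lymphoid tissue. Marginal zone B cells, the other mature B cells of the spleen, lack CD23, carry more CD21, CD9 and CD1d, and respond fast to blood-borne antigen.

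The members numbered 911 of 2119, 977 of 2117, 924 of 2048 and 1233 of 2402 barcodes. Their summed UMIs were 4063987, 4314225, 4327375 and 5535547, out of library totals of 12181206, 10987970, 11227539 and 12636201. The median member held 4018, 4052, 4303.5 and 4198 UMIs, from 1533, 1556, 1624 and 1606 gene symbols. Depth per member was therefore close across libraries, with the *Aire*-/- isotype library the deepest. No doublets were removed, and 41, 38, 28 and 36 members exceeded 2 times their library's median UMIs. Pairs of libraries shared 3 to 16 barcode sequences, counted over all barcodes and not over members alone, and none was removed.

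At the threshold, 234, 235, 229 and 292 members held a single Fcer2a UMI, while the median member held 3 in each library. Just outside it, 415, 393, 377 and 402 barcodes met every other criterion without an Fcer2a UMI, 1587 in all. Barcodes that missed the rule through a Cd3 gene alone numbered 13, 17, 21 and 18, and through Lyz2 alone 4, 1, 1 and 1. A further 35, 28, 17 and 32 missed it through a cell-cycle gene alone, and 1, 3, 1 and 0 through Cd79a alone. Fcer2a was thus the criterion at which most B cell barcodes parted.

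Genes that the rule did not use describe the members further. Ms4a1, which encodes CD20, had a UMI in 95.6%, 96.2%, 97.6% and 96.9% of members, and Fcmr, the receptor for the Fc part of IgM, in 93.96%, 92.2%, 93.8% and 92.6%. As a measure of free RNA, the same libraries held 328, 408, 452 and 498 T cell barcodes, with a median of 5831.5, 5436, 5528 and 5205 UMIs. Among these deeper barcodes the share with a UMI was 0.735% to 3.66% for Ms4a1 and 0.201% to 1.72% for Fcmr. When every barcode was thinned at random to 2000 UMIs, 907, 947, 908 and 1224 members and 323, 381, 444 and 491 T cell barcodes were deep enough to enter. Thinned members still had a UMI of Ms4a1 in 83.4% to 88.8% and of Fcmr in 78.8% to 81.4%, against 0% to 0.676% and 0.204% to 1.05% of thinned T cell barcodes. Both fixed markers that the rule left free were therefore present in most members at either depth, far above the T cell background. The rule already asked for Cd79a and no Cd3 gene, so this cannot tell follicular from other B cells. Of the marginal zone markers, Mzb1 had a UMI in 67.8% to 73.9% of members and Cd9 in 4.94% to 6.57%.

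Levels are CPM, a gene's UMIs scaled to the members' UMI total of the library. Cd79a stood at 3882, 4014, 4114 and 4259.7 CPM, which only describes the selection. Ms4a1 stood at 1115, 1215, 1272 and 1312 CPM and Fcmr at 1087, 1103, 1030.2 and 979 CPM. The library with the highest value was *Aire*-/- anti-PD1 for Ms4a1 and *Aire*+/+ anti-PD1 for Fcmr.

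Both heavy chains of a resting follicular cell were seen. Ighd, the IgD constant region, had a UMI in 88.7%, 86.7%, 83.01% and 85% of members, or 69.3%, 68.8%, 59.3% and 61.6% after thinning, against 1.72% to 3.66% of T cell barcodes. Ighm, the IgM constant region, had one in 97.9%, 94.4%, 96.9% and 97% of members, but 66.9% to 69.1% of T cell barcodes also held one, so an Ighm UMI alone does not mark a cell that makes IgM. After thinning the Ighm shares were 83.7% to 89.3% in members and 36.5% to 46.2% in T cell barcodes. Members with a UMI of both made up 87.2%, 82.5%, 80.4% and 82.7%. Ighd stood at 650.3, 607, 500.3 and 545 CPM and Ighm at 1250.5, 1100.1, 1078 and 1063 CPM, each highest in the *Aire*+/+ isotype library. In the light chains, Igkc stood at 1900.1, 1623, 1943 and 2286 CPM and Iglc2, a lambda constant region, at 1582, 1526, 1549 and 1589 CPM. The *Aire*-/- isotype value of Igkc was raised by 1 member with 1261 Igkc UMIs. The highest counts in 1 member of the other libraries were 47, 42 and 58.

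Switched heavy chains were seen in a minority of members. At least 1 UMI of them was held by 50, 37, 41 and 65 members, and 2, 3, 4 and 3 members held more of these than of Ighm, a comparison that free Ighm RNA limits. Igha, the IgA constant region, had a UMI in 4.94%, 2.66%, 3.35% and 3.97% of members against 0% to 0.201% of T cell barcodes. Jchain, which links secreted IgM and IgA, stood at 3.69, 1.62, 493 and 3.07 CPM. The *Aire*-/- isotype value rested on 1 barcode with 2090 Jchain UMIs and another with 36, and Igha, at 12.1, 7.42, 138 and 9.76 CPM, was likewise raised by 1 barcode with 563 UMIs. No other library had a member with 20 or more Jchain UMIs.

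Genes of other lineages were low in the members, and those the rule set to 0 are no finding. Of 12 T cell markers, 9 are present in the tables, and they summed to 34.7, 34.1, 30.04 and 25.3 CPM with Lck, a kinase that some B cells also express, the most abundant. Of 8 NK cell markers all were present, summing to 27.8, 29.9, 25.9 and 90.5 CPM with Ccl5 the most abundant, so the *Aire*-/- anti-PD1 library stood above the rest. The 10 myeloid markers summed to 262, 253, 287 and 272 CPM, mostly from Cst3, a protease inhibitor that many cell types make. The 6 neutrophil markers summed to 1.23, 0, 0.462 and 1.99 CPM, led by S100a9, with Ltf and Mmp8 at 0. The 6 erythroid markers summed to 14.3, 3.71, 15.02 and 8.13 CPM, led by Hbb-bt, and the 4 platelet markers to 0.492, 0.695, 0 and 0 CPM, led by Itga2b, with Pf4 and Gp9 at 0. The 5 plasmacytoid dendritic cell markers summed to 63.7, 63.05, 63.8 and 60.2 CPM, led by Bst2, an interferon-induced gene, with Klk1 and Cox6a2 at 0. The part of these transcripts in any comparison between conditions was not tested.

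Members made up 43.0%, 46.2%, 45.1% and 51.3% of the splenic CD45+ barcodes. Their exact binomial 95% intervals, which like all intervals here cover counting error only, were 40.9% to 45.1%, 44.0% to 48.3%, 42.9% to 47.3% and 49.3% to 53.3%. The *Aire*-/- anti-PD1 library thus had the largest share, and its interval did not meet those of the others. The fold of *Aire*-/- over *Aire*+/+ was 1.05 (95% interval 0.957 to 1.15) in isotype-treated mice and 1.11 (1.02 to 1.21) in anti-PD1-treated mice. The fold of anti-PD1 over isotype was 1.07 (0.980 to 1.18) in *Aire*+/+ and 1.14 (1.04 to 1.24) in *Aire*-/-. These intervals treat members as Poisson counts, which is too wide for shares of this size. Intervals for a ratio of binomial shares, chosen after the data were seen and used for the folds below, were 0.980 to 1.12, 1.05 to 1.18, 1.004 to 1.15 and 1.07 to 1.21. With barcodes thinned to 2000 UMIs before the rule was applied, the shares were 35.1%, 37.9%, 35.0% and 40.9%. The intervals of the anti-PD1 libraries then overlapped, at 35.8% to 40.1% in *Aire*+/+ and 38.9% to 42.9% in *Aire*-/-, and the genotype fold was 1.08 (1.001 to 1.16) under anti-PD1 and 0.996 (0.916 to 1.08) under isotype. Without neutrophil, NK and myeloid barcodes in the denominator the shares were 56.6%, 57.5%, 56.4% and 62.4%. The intervals of the anti-PD1 libraries, at 55.1% to 59.9% in *Aire*+/+ and 60.2% to 64.6% in *Aire*-/-, then did not meet. The genotype fold on that denominator was 1.09 (1.03 to 1.15) under anti-PD1 and 0.995 (0.937 to 1.06) under isotype. In *Aire*+/+ the fold of anti-PD1 over isotype was 1.08 (0.996 to 1.17) in thinned barcodes and 1.01 (0.957 to 1.08) on that denominator. Both intervals thus included 1. In *Aire*-/- it was 1.17 (1.08 to 1.26) and 1.11 (1.05 to 1.17).

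Counted only among barcodes with Cd79a and no Cd3 gene, members made up 65.3%, 68.0%, 68.9% and 72.7%. The exact binomial intervals were 62.7% to 67.8%, 65.6% to 70.4%, 66.3% to 71.3% and 70.5% to 74.8%, so those of the anti-PD1 libraries did not meet. Those of both *Aire*-/- libraries overlapped. On that denominator the folds were 1.05 (1.0004 to 1.11), 1.07 (1.02 to 1.12), 1.04 (0.989 to 1.098) and 1.06 (1.01 to 1.11), in the same order of comparisons. A share of sorted cells depends on every other cell type in the sort, so the larger share in the *Aire*-/- anti-PD1 library says nothing about the number of B cells per spleen.

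**Figure D1:**
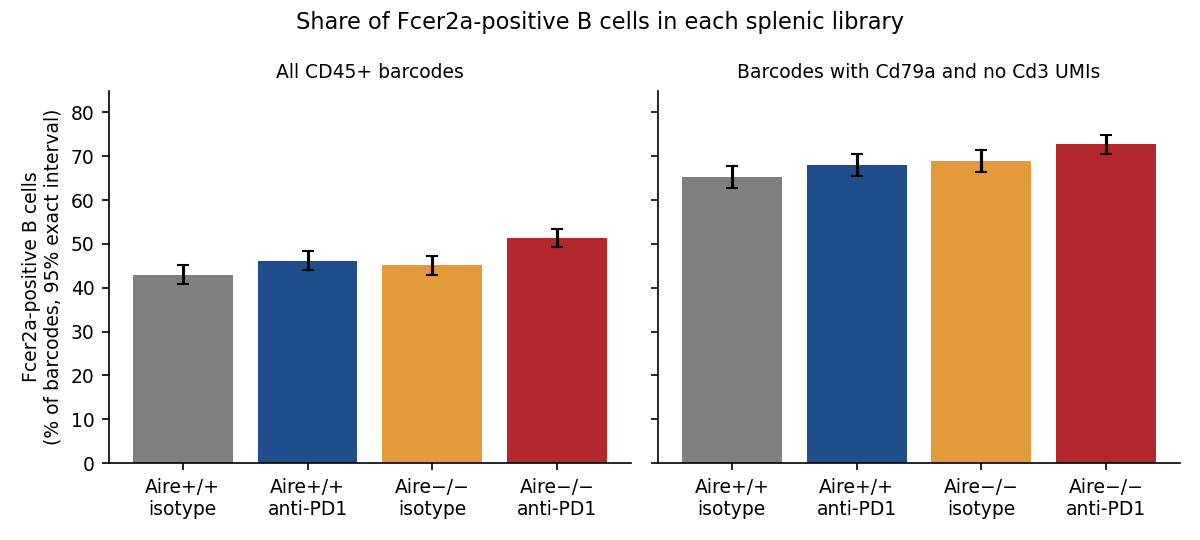
Members as a percent of CD45+ spleen barcodes (left) and of barcodes with Cd79a and no Cd3 UMI (right) in each of the 4 libraries, with exact binomial 95% intervals as error bars. On the left the *Aire*-/- anti-PD1 library sits highest at 51.3% and the *Aire*+/+ isotype library lowest at 43.0%.

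What else separates the CD23-bearing cells from other splenic B cells was tested by comparing members with the 1587 Fcer2a-negative B cell barcodes. Counts were summed per library and population, and edgeR's quasi-likelihood test was run with the library as a block over 4 libraries. The Fcer2a-negative barcodes were deeper, with a median of 4755, 4519, 4836 and 4655.5 UMIs, and they can include follicular cells whose Fcer2a was missed. Of 9627 symbols tested, 876 (9.1%) were higher in members and 1169 (12.1%) were lower at an adjusted p of at most 0.05. DESeq2 with the same block called fewer, 299 higher and 485 lower of 14186 symbols, and the list counts below are those of edgeR. A gene that entered the test only through the population where it is high could differ in only 1 direction. List counts and medians below therefore cover only genes with at least 30 UMIs in each population, a limit chosen after the data were seen. Over all 9190 such symbols 864 (9.4%) were higher and 1054 (11.5%) lower. Their median log2 fold change was 0.0015. Positive values below mean higher in members.

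Genes of the homing list, which holds receptors, adhesion molecules and Klf2, were mostly on the higher side. Of 14 homing genes, 9 were higher and 2 lower, with a median of 0.64. Cxcr5, a chemokine receptor of both the homing and the follicular list, had no call. Ccr7, the receptor for the chemokines of the T cell zone, stood at 211, 219, 278 and 247 CPM in members and 98.3, 142, 146 and 132 CPM in Fcer2a-negative cells, higher in 4 of 4 libraries (log2 fold change 0.83 ± 0.058 (SE), adjusted p = 3.46e-12, edgeR). Itgb7, an integrin chain for gut homing, had a log2 fold change of 0.84, and the lymph-egress receptor S1pr1 one of -0.57, the latter being lower in members.

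The follicular markers outside the rule had 4 of 6 higher and 1 lower. Ighd stood at 650.3, 607, 500.3 and 545 CPM in members against 261, 330.1, 251 and 246 CPM, higher in 4 of 4 libraries (log2 fold change 1.03 ± 0.053 (SE), adjusted p = 4.40e-15, edgeR). Cd55, which shields cells from complement, had a log2 fold change of 1.07, and Fcmr one of 0.49. Ms4a1 was the exception, at 1115, 1215, 1272 and 1312 CPM in members and 1524, 1438, 1509 and 1623 CPM in Fcer2a-negative cells, lower in members in 4 of 4 libraries (log2 fold change -0.37 ± 0.033 (SE), adjusted p = 5.74e-10, edgeR). CD20 RNA was thus present in both populations and somewhat less abundant in the CD23-bearing one.

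Marginal zone genes lay on the other side without exception, with 0 higher and 12 lower of 12 and a median of -1.69. Cd9, a tetraspanin of marginal zone B cells, stood at 14.8, 18.5, 16.2 and 19.7 CPM in members and 101, 85.1, 108 and 88.3 CPM in Fcer2a-negative cells, a separation in 4 of 4 libraries (log2 fold change -2.51 ± 0.10 (SE), adjusted p = 2.08e-17, edgeR). Cr2, which encodes CD21, stood at 339, 289, 269 and 291 against 538, 445, 503 and 484 CPM, lower in 4 of 4 libraries (log2 fold change -0.79 ± 0.046 (SE), adjusted p = 9.62e-14, edgeR). S1pr3, a sphingosine-1-phosphate receptor that marks marginal zone B cells, had a log2 fold change of -2.65, and Rgs10, a regulator of G-protein signalling, one of -2.73. Members were thus lower in these genes but not without them, since the list summed to 1454, 1347, 1316 and 1330.3 CPM in members.

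Antibody-secreting, B1 and age-associated B cell genes were also lower in members. Of 9 plasma cell markers 7 had enough UMIs in both populations, and these 7 were lower (median -1.16). Of 9 B1 and age-associated markers 5 did, and 4 were lower (median -0.74). Fcrl5, an inhibitory Fc receptor-like protein of marginal zone and B1 cells, had a log2 fold change of -2.03. Markers of other lineages were lower as well. Of 10 myeloid markers 4 had enough UMIs in both populations, and 3 were lower and 0 higher (median -1.50). Of 8 NK cell markers 4 did, and 3 were lower and 0 higher (median -1.33). The only plasmacytoid dendritic marker with enough UMIs, Bst2, was lower, while 1 T cell marker and 2 erythroid markers had no call. Mitochondrially encoded messages were lower in members in 10 of 10, with a median of -0.20, and Xist was lower at -0.49. The part of RNA quality and of transcripts from other cells in these differences was not tested. Of 9 immunoglobulin constant genes, 2 were higher, Ighd and Iglc3, and 7 were lower. Transitional markers had 0 higher and 2 lower of 5, Cd24a and Cd93, and germinal centre markers had 1 higher and 1 lower of 5. The higher one was Bcl6, the repressor that drives the germinal centre program, at 21.4, 15.8, 22.4 and 26.6 CPM in members and 7.08, 4.89, 9.85 and 10.5 CPM in Fcer2a-negative cells, higher in 4 of 4 libraries (log2 fold change 1.35 ± 0.16 (SE), adjusted p = 1.47e-07, edgeR).

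Antigen presentation and transcription factors leaned to the higher side. Of 13 genes for MHC class II and costimulation, 11 were higher, among them H2-Aa, H2-Ab1, Cd74 and Ciita, and 1 was lower. The lower one was Cd86, a ligand of CD28, with a log2 fold change of -0.60, while Icosl, the ligand of ICOS on helper T cells, stood at 0.79. Of 18 B cell transcription factors, 10 were higher and 1, Tcf4, was lower at -0.65. Bach2, which holds back plasma cell differentiation, had a log2 fold change of 0.62, and Mef2c, a factor of B cell proliferation and survival, one of 0.52.

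Survival and signalling genes were mixed. Of 12 genes of the BAFF pathway and survival, 6 were higher, including the BAFF receptor gene Tnfrsf13c and Bcl2, and the other 6 had no call. B cell receptor signalling genes had 7 higher, with Btk, Cd22 and Plcg2 among them, and 6 lower, with Lyn, Blnk and Fcgr2b among them, of 20. Fc and complement receptors had 3 higher and 3 lower of 8, and checkpoint genes 3 higher and 2 lower of 6, with Cd200, an inhibitory ligand, at 1.02. Activation and immediate early genes had 9 higher and 2 lower of 21, with Cd83, which steadies surface MHC class II, at 0.81.

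Innate and interferon genes lay lower or showed no call in members. Of 20 type I interferon response genes, 0 were higher and 11 lower (median -0.36), and of 17 interferon-gamma response genes 0 were higher and 9 lower (median -0.25). Of 11 Toll-like receptor genes, 0 were higher and 4 lower, including Tlr7, a sensor of single-stranded RNA, and Cd180. Heat shock genes had 2 higher, Dnaja1 and Hsph1, and 5 lower of 11.

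The 12 genes with the largest fold changes past the threshold included several that no list held. Crisp3, a secreted cysteine-rich protein, stood at 22.1, 21.8, 17.8 and 16.3 CPM in members and 6.25, 7.34, 7.03 and 3.51 CPM in Fcer2a-negative cells, higher in 4 of 4 libraries (log2 fold change 1.64 ± 0.18 (SE), adjusted p = 3.86e-08, edgeR). Its lowest member value lay above every Fcer2a-negative value. Slamf1, the costimulatory receptor CD150, stood at 47.5, 36.6, 36.7 and 45.9 against 10.4, 16.6, 11.7 and 22.4 CPM, higher in 4 of 4 libraries (log2 fold change 1.39 ± 0.14 (SE), adjusted p = 8.08e-09, edgeR). The rule for naming genes also gave Fam101b at 1.55, the carbonic anhydrase gene Car2 at 1.36 and Bcl6, given above. With barcodes thinned before the rule these fold changes were smaller, at 0.80 for Crisp3, 0.64 for Slamf1, 0.88 for Fam101b, 0.84 for Car2 and 0.73 for Bcl6. The other 7 were Dusp4, Gad1, L1cam, Tle1, Prss12, Cyp2d22 and Mir17hg. All 7 held fewer than 30 UMIs in the Fcer2a-negative cells, so they entered the test through the members, and no fold or p-value is given. L1cam, Tle1, Prss12, Cyp2d22 and Mir17hg were also not past the threshold with DESeq2. Dusp4, a phosphatase of MAP kinases, stood at 3.69, 3.71, 2.08 and 3.25 CPM in members and 0, 0, 0.469 and 0 CPM in Fcer2a-negative cells. Gad1, glutamate decarboxylase, stood at 5.17, 8.34, 4.39 and 6.32 against 1.67, 1.96, 1.41 and 0.878 CPM.

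On the lower side the rule gave Jchain, Prg2, Ighg2c, Fam46c, Mt1, Chst1, Trf, Hspb1, Pstpip2, Slc39a4, Itgax and Nacc2. All but Jchain and Prg2 held fewer than 30 UMIs in members and entered the test through the Fcer2a-negative cells, so no fold or p-value is given for them. Chst1 and Ighg2c were also not past the threshold with DESeq2. Jchain had a log2 fold change of -7.56, or -1.60 once barcodes with 20 or more Jchain UMIs were left out of both populations, a limit chosen after the data were seen. Without the *Aire*-/- isotype library Jchain had -10.78, without *Aire*-/- anti-PD1 -6.73 and without *Aire*+/+ anti-PD1 -6.83. Prg2, a proteoglycan known from eosinophil granules, stood at 0.246, 0, 10.2 and 0 CPM in members and 41.2, 30.3, 33.3 and 119 CPM in Fcer2a-negative cells. Its member UMIs came almost all from the *Aire*-/- isotype library, so no fold is given. Ighg2c, the IgG2c constant region, stood at 4.17, 2.93, 0 and 609 CPM in Fcer2a-negative cells, nearly all in the *Aire*-/- anti-PD1 library. Fam46c, a poly(A) polymerase of plasma cells, stood at 0.738, 0.232, 0.693 and 0.723 CPM in members and 20.4, 11.7, 13.1 and 26.4 CPM in Fcer2a-negative cells. Once barcodes with 20 or more Jchain UMIs were left out, Fam46c, Prg2, Mt1, Chst1, Trf, Hspb1 and Slc39a4 no longer entered the test.

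Since Fcer2a sets the populations apart, genes that vary with it were bound to differ. With barcodes thinned before the rule, 235 symbols were higher and 418 lower. Thinning also moves barcodes across the rule and lowers the counts, so depth cannot be told apart from these.

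**Figure D2:**
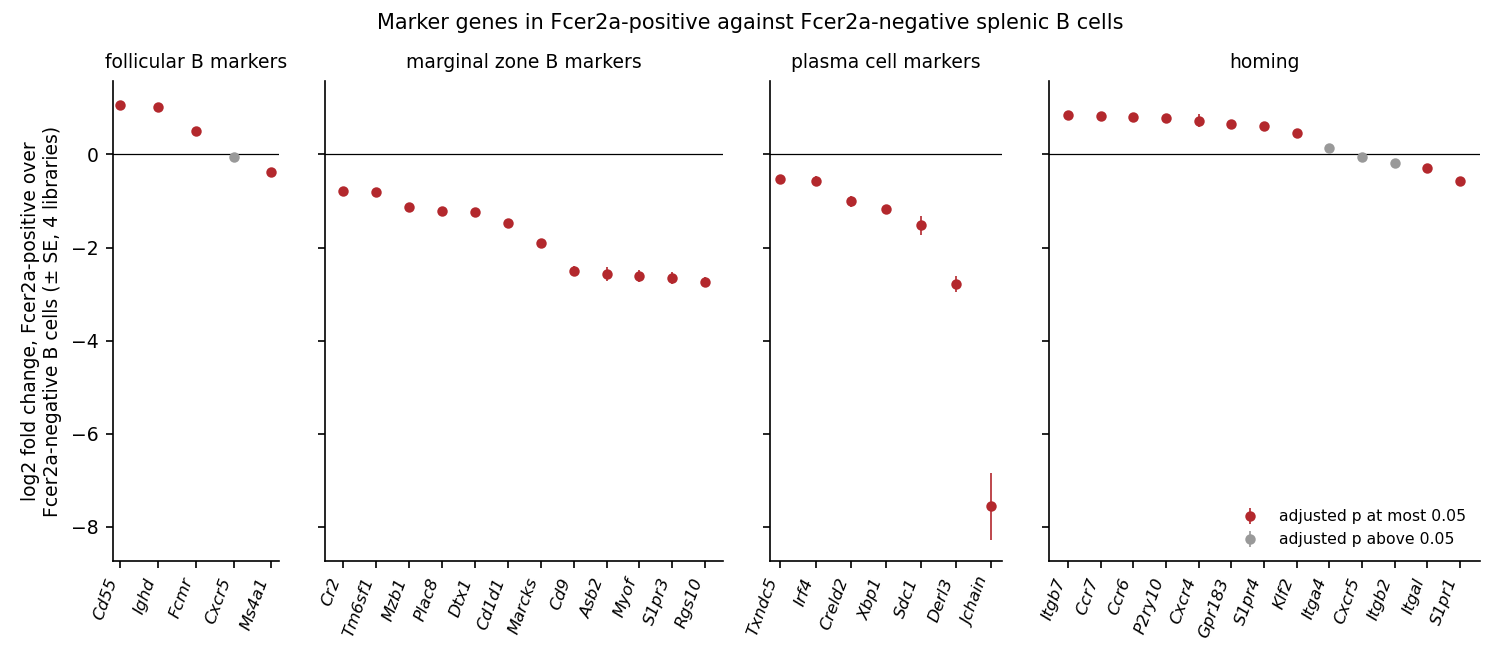
Log2 fold change of members over Fcer2a-negative B cell barcodes, with standard errors as bars, for marker genes of splenic B cell states that the rule did not use and that held at least 30 UMIs in each population. Homing and follicular genes such as Ccr7 and Ighd lie mostly above 0, and marginal zone genes such as Cd9 lie below it.

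Members also varied among themselves. After thinning to 2000 UMIs, the Fano factor (variance of the UMI count over its mean, near 1 for pure counting) had a median of 1.02 over 2325 symbols with enough UMIs, and 53 symbols exceeded 1.5 in every library. The largest factors were those of the ribosomal RNA symbol Rn45s, at 111, 86.1, 74.2 and 64.6. The genes that follow were chosen after their values were seen. Cd74, the MHC class II invariant chain, had Fano factors of 4.11, 4.02, 3.64 and 3.93, and the nuclear RNA Malat1 had 4.88, 4.26, 4.16 and 3.86. Ifi27l2a, an interferon-induced gene, had 2.54, 3.42, 3.198 and 2.74, and Cd83, which rises on activation, had 1.70, 2.17, 2.30 and 3.09. Klf2, a factor of B cell quiescence and traffic, had 2.05, 2.21, 2.19 and 2.05. Apoe had 1.70, 2.39, 2.36 and 2.41 and Vim, an intermediate filament protein, had 2.32, 2.08, 2.78 and 2.26. For every gene given here the excess was present in each library.

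The genotype comparison asks how the members differ between mice with and without Aire, within each treatment. Aire itself had 2, 3, 3 and 0 UMIs over all members, too few to check the labels, and a read from the 3′ end need not lie in the deleted part. The Y-linked genes were at 0 in each library and Xist, which is expressed from the inactive X chromosome, stood at 392, 384, 393 and 351 CPM. The 4 libraries were therefore alike in the Y-linked genes, while Xist was lowest in the *Aire*-/- anti-PD1 library.

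Ratios are log2 of CPM in *Aire*-/- over *Aire*+/+, and a gene was called when its ratio, with 1 CPM added to both sides, was at least 1.5-fold the same way under both treatments. Of 8421 symbols with at least 100 UMIs over the members, 20 (0.238%) were higher in *Aire*-/- and 20 (0.238%) were lower. Without regard to size, both *Aire*-/- libraries lay above both *Aire*+/+ libraries in 2243 symbols (26.6%) and below them in 1548 (18.4%). The median log2 ratio over all symbols was 0.024 under isotype and 0.028 under anti-PD1. Ratios given for single genes below have no CPM added and carry exact conditional 95% intervals. Of all symbols, 116 (1.38%) were at least 1.5-fold higher in *Aire*-/- under isotype and 162 (1.92%) under anti-PD1, while 144 (1.71%) were at least 1.5-fold lower under isotype and 160 (1.9%) under anti-PD1.

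**Figure D3:**
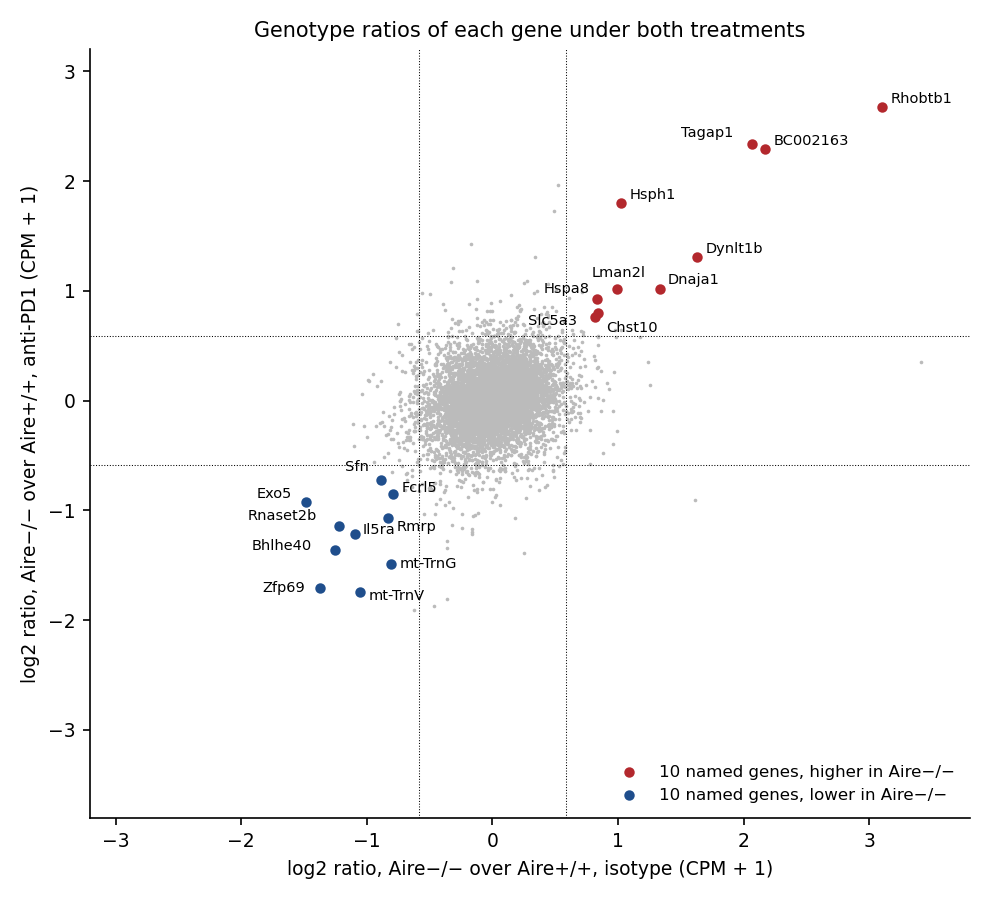
Log2 ratio of CPM, with 1 CPM added, in *Aire*-/- over *Aire*+/+ under isotype (x axis) and under anti-PD1 (y axis), 1 point per symbol, with dotted lines at 1.5-fold and the named genes in color. Most symbols lie near 0, Rhobtb1 lies farthest up on both axes among the named genes, and 2 symbols lie outside the axes.

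Chaperones that fold proteins and answer heat and stress formed a group among the higher genes. Hspa8, the constitutive Hsp70, stood at 1109, 953, 1979 and 1814 CPM. Its log2 ratio was 0.84 (95% interval 0.78 to 0.89) with isotype and 0.93 (95% interval 0.88 to 0.98) under anti-PD1. Both *Aire*-/- libraries therefore lay well above both *Aire*+/+ libraries. Dnaja1, an Hsp40 partner of Hsp70, stood at 157, 149, 397 and 304 CPM. Its log2 ratio was 1.34 (95% interval 1.21 to 1.47) with isotype and 1.03 (95% interval 0.89 to 1.16) under anti-PD1. Hsph1, the Hsp110 that exchanges nucleotide on Hsp70, stood at 30.5, 18.5, 63.1 and 67.02 CPM. In each of these chaperones the lower *Aire*-/- value was above the higher *Aire*+/+ value. They were named for large ratios the same way under both treatments, so this follows largely from the choice.

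The heat shock list held 9 genes with enough UMIs. Against 26.6% above and 18.4% below over all symbols, 9 of them were above in both *Aire*-/- libraries and 0 below. Of these, 5 passed 1.5-fold under isotype and 4 under anti-PD1, and their median log2 ratios were 0.65 and 0.43. The list summed to 3319.9, 3176, 5253 and 4801 CPM in members. Its sum was 3736, 3494, 4964 and 4848 CPM in Fcer2a-negative B cells and 4236, 3822, 6048 and 5255 CPM in T cell barcodes of the same libraries. Both *Aire*-/- libraries were therefore the higher ones in all 3 populations. Other called genes of the same function, chosen after their values were seen, were the Hsp90 co-chaperone genes Stip1, at 49.95, 52.8, 102 and 82.9 CPM, Chordc1, at 57.1, 57.9, 94.98 and 88.2 CPM, and Ptges3, at 139, 134, 216 and 210.3 CPM. Cirbp, a cold-inducible RNA-binding protein, was lower in *Aire*-/-, at 185, 238, 119 and 147 CPM.

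The promoters of the heat shock list were read for the paired half-sites of heat shock factor, GAANNTTC and TTCNNGAA, each of which is its own reverse complement. RefSeq sequences (GRCm38.p6) covered 8 genes of the list, and 6 of them (75%) held a match in the 250 bases before a start, against 3932 of 27025 genes with a promoter (14.5%). Hspa8 had no entry. The 6 include Hspa1a and Hspa1b, which had too few UMIs to be compared here, and Hspd1 and Hspe1, whose windows overlap and hold the same 3 matches. A stretch with a match is given for Dnaja1, on the plus strand at chr4:40722333-40722362, and for Hsph1, on the minus strand at chr5:149636351-149636380. Each is written 5′ to 3′, with the match in capitals.
Dnaja1: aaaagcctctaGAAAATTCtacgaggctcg
Hsph1: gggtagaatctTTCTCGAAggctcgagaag
A match describes the letters only, and binding was not measured.

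**Figure D4:**
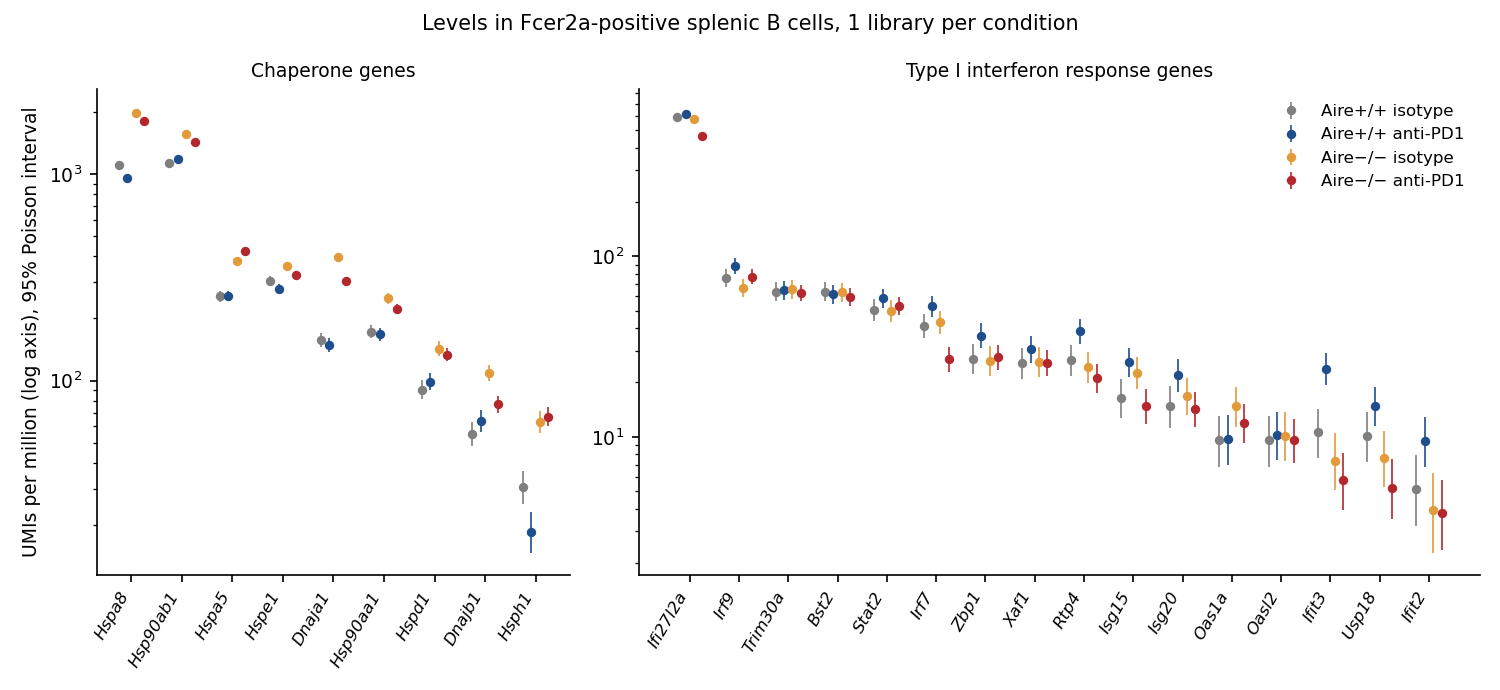
CPM of chaperone and type I interferon response genes in the members of the 4 libraries, on a log axis, with exact Poisson 95% intervals as bars. Hspa8 is high in both *Aire*-/- libraries, while Ifit3 is highest in the *Aire*+/+ anti-PD1 library.

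Homing genes leaned the same way at a smaller size. Of 14, 10 were above in both *Aire*-/- libraries and 1 was below, against 26.6% and 18.4% of all symbols. The median log2 ratios of the list were 0.19 under isotype and 0.16 under anti-PD1. Its sum was 2564, 2783, 3007 and 3153 CPM in members and 1873, 2081, 2199 and 2224 CPM in Fcer2a-negative B cells. In T cell barcodes it was 2981, 3147, 3354 and 3398 CPM. Both *Aire*-/- libraries were the higher ones in each population, so this does not set follicular B cells apart. Ccr6, the receptor for CCL20, stood at 85.1, 121, 153 and 180.5 CPM. Its log2 ratio was 0.85 (95% interval 0.66 to 1.04) with isotype and 0.58 (95% interval 0.43 to 0.74) under anti-PD1, with the anti-PD1 library also the higher of each genotype. Gpr183, the oxysterol receptor that positions B cells at the edge of follicles, stood at 163, 179, 238 and 249 CPM. Klf2 stood at 788, 881, 910.5 and 998 CPM and Ccr7 at 211, 219, 278 and 247 CPM, again lower in both *Aire*+/+ libraries. Cxcr4, the receptor for CXCL12, stood at 27.8, 34.8, 27.7 and 17.9 CPM and was lowest in the *Aire*-/- anti-PD1 library.

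Mitochondrially encoded transcripts leaned the other way. Against 26.6% and 18.4% of all symbols, 0 of 10 messages were above in both *Aire*-/- libraries and 9 below. The messages had median log2 ratios of -0.21 and -0.30. They summed to 31823, 31672, 26924 and 26003 CPM, and the median member's mitochondrial share of UMIs was 5.28%, 5.20%, 4.18% and 4.04%. None passed 1.5-fold, and the part of RNA quality in the genotype differences was not tested. Among the named lower genes, the mitochondrial transfer RNA genes mt:TrnV and mt:TrnG stood at 22.6, 27.1, 10.4 and 7.41 CPM and 7.63, 10.4, 3.93 and 3.07 CPM. The 81 ribosomal protein genes summed to 281821, 277294, 278067 and 272031 CPM, with little difference between genotypes.

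Among other genes higher in *Aire*-/-, Rhobtb1, an atypical small GTPase, came first by the smaller of both ratios, from 0.246, 1.62, 9.71 and 15.7 CPM. The first of these values rested on 1 UMI, and the log2 ratio was 5.30 (95% interval 2.74 to 10.64) with isotype and 3.28 (95% interval 2.17 to 4.63) under anti-PD1. BC002163, which resembles Ndufs5, stood at 15.7, 16.2, 74.4 and 83.1 CPM and Tagap1 at 1.23, 1.16, 8.32 and 9.94 CPM. Dynlt1b, a dynein light chain, stood at 41.1, 45.7, 129 and 115 CPM, with log2 ratios of 1.65 (95% interval 1.40 to 1.91) with isotype and 1.33 (95% interval 1.10 to 1.57) under anti-PD1. Each of these genes separated the genotypes without overlap, but they were chosen for large ratios the same way under both treatments. Lman2l, a lectin of the secretory pathway, stood at 12.1, 11.1, 24.96 and 23.5 CPM, Chst10, a sulfotransferase, at 19.7, 16.9, 36.05 and 30.2 CPM and Slc5a3, a myo-inositol transporter, at 6.40, 5.56, 12.02 and 10.1 CPM. Jchain was also among the 20 higher symbols, but under isotype it rested on the barcode with 2090 Jchain UMIs. Without members of 20 or more Jchain UMIs, a choice made after seeing the data, 18 of the 20 were called.

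Several of these differences were shared by other cells of the libraries. BC002163 stood at 14.99, 11.2, 72.7 and 79.9 CPM in Fcer2a-negative B cells and at 19, 14.5, 73.6 and 87.5 CPM in T cell barcodes. Dynlt1b stood at 36.2, 45.97, 114 and 121 CPM and 42.3, 36.1, 98.98 and 89.3 CPM in the same populations. Both genes were thus higher in *Aire*-/- in all 3 populations, so they do not set follicular B cells apart. Hspa8 in T cell barcodes stood at 1641, 1431, 2433 and 2176 CPM.

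Among genes lower in *Aire*-/-, several act in immune cells. Il5ra, the alpha chain of the interleukin-5 receptor, stood at 26.3, 22.3, 11.8 and 9.03 CPM. Its log2 ratio was -1.16 (95% interval -1.67 to -0.67) with isotype and -1.30 (95% interval -1.82 to -0.79) under anti-PD1. Fcrl5 stood at 44.3, 52.8, 25.2 and 28.9 CPM, lower in both *Aire*-/- libraries. Bhlhe40, a transcriptional repressor, stood at 21.2, 20.2, 8.32 and 7.23 CPM, with log2 ratios of -1.35 (95% interval -1.95 to -0.77) with isotype and -1.48 (95% interval -2.06 to -0.92) under anti-PD1, and in thinned members the ratio nearer 0, with 1 CPM added, was -0.40. Sfn, the 14-3-3 protein sigma, stood at 59.1, 57.5, 31.4 and 34.5 CPM. All of these lay higher in both *Aire*+/+ libraries, at low levels, and were chosen for that direction.

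Rnaset2b, a ribonuclease of lysosomes, stood at 51.4, 59.3, 21.5 and 26.4 CPM in members and at 190.0, 204, 79.3 and 86.8 CPM in T cell barcodes, lower in *Aire*-/- in both. Exo5, an exonuclease, stood at 15.99, 13.2, 5.08 and 6.50 CPM and Zfp69, a zinc finger protein, at 9.35, 14.6, 3.004 and 3.79 CPM. Rmrp, the RNA of the ribonuclease MRP complex, stood at 13.5, 14.4, 7.16 and 6.32 CPM. Rnaset2b, Tagap1, Dynlt1b and BC002163 have near-identical copies in the mouse genome, so their counts can be split between copies, and their values are uncertain for that reason. Of 5 genes of the Rnaset2, Tagap and Dynlt1 families with enough UMIs, 3 were above in both *Aire*-/- libraries and 1 below, while Rnaset2a and Dynlt1c were at 0 in each library.

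Some called genes lay close together on the genome. Of 40 genes called for genotype, 36 had a position in RefSeq (GRCm38.p6), and 16 of them had another called gene within 5 Mb. On chromosome 17 lay 4 of them, Tmem181a, Dynlt1b, Tagap1 and Rnaset2b, where 436 of 8004 tested symbols with a position (5.45%) lie. Tagap1 and Rnaset2b were 0.0173 Mb apart and went opposite ways. Zfp69 and Exo5 on chromosome 4 were 0.00513 Mb apart, and both were lower in *Aire*-/-. Bhlhe40 and Il5ra on chromosome 6 were 1.91 Mb apart and both lower, and Chst10 and Lman2l on chromosome 1 were 2.42 Mb apart and both higher. Other pairs went opposite ways, with Dnaja1 higher and Rmrp lower 2.76 Mb apart on chromosome 4, and Chordc1 higher and Gm16845 lower 3.76 Mb apart on chromosome 9. Rhobtb1 and Ptges3, both higher, and Cirbp, lower, lay on chromosome 10 with no other called gene within 5 Mb. How near the called genes lie to Aire itself was not tested. How many neighbors other sets of genes would have was not tested, nor was the part of position in these differences. Whether the genotypes differ in inherited sequence around these loci, such as sequence carried along from another strain, was not tested.

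Other programs of follicular B cells are given as counts of genes above or below in both *Aire*-/- libraries. Of 20 B cell receptor signalling genes, 5 were above in both *Aire*-/- libraries and 2 below, with none past 1.5-fold in either treatment. The BAFF and survival genes had 4 above and 2 below of 12, the B cell transcription factors 6 and 4 of 18, and the follicular markers outside the rule 3 and 2 of 6. MHC class II and costimulation genes had 1 and 2 of 13, interferon-gamma response genes 3 and 2 of 17, and Toll-like receptor genes 1 and 3 of 11. Marginal zone markers had 2 and 5 of 12, B1 and age-associated markers 0 and 2 of 3, and plasma cell markers 2 and 0 of 5. Fc and complement receptors had 1 and 2 of 8, checkpoint genes 1 and 2 of 5, immunoglobulin constant genes 2 and 2 of 7, transitional markers 1 and 1 of 2, and germinal centre markers 1 and 0 of 3. Activation and immediate early genes had 7 and 3 of 18. The background was 26.6% and 18.4%. By size, the B1 and age-associated markers had median log2 ratios of -0.49 under isotype and -0.56 under anti-PD1, with 1 of 3 at least 1.5-fold lower in each. Plasma cell markers had medians of 0.33 and 0.34, and germinal centre markers 0.093 and 0.53. Of 18 activation genes, 2 were at least 1.5-fold higher in *Aire*-/- and 0 lower under isotype, and 1 higher and 3 lower under anti-PD1. Of 12 marginal zone genes, 0 were higher and 2 lower under isotype, and 0 either way under anti-PD1.

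The genotype differences have 1 library on each side within a treatment, so genotype, pool and library cannot be told apart. With members thinned to 2000 UMIs, 26 symbols were higher and 18 lower, but only 11 and 5 of them were among those called here. Of the named genes, some then had too few UMIs to be called. Their ratios nearer 0, with 1 CPM added, were 3.29 for Rhobtb1, 1.52 for Tagap1, 0.61 for Slc5a3 and -1.47 for Zfp69. Exo5 had -0.84, mt:TrnG -0.93, Rmrp -0.47 and Bhlhe40 -0.40. Chst10, at 0.56, and Sfn, at -0.55, had enough UMIs and fell short of 1.5-fold.

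The treatment comparison asks how the members of anti-PD1-treated mice differ from those of isotype-treated mice, within each genotype. By the same size rule 8 symbols (0.095%) were higher with anti-PD1 in both genotypes and 3 (0.0356%) were lower. Without regard to size, both anti-PD1 libraries lay above both isotype libraries in 1494 symbols (17.7%) and below them in 940 (11.2%). The median log2 ratio over all symbols was 0.020 in each genotype. Pdcd1, which encodes PD1, had no UMI in the members of any library, so the receptor that the antibody targets was not detectable at this depth.

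Type I interferon response genes differed by treatment in opposite ways in the genotypes. Of 16 genes, 15 were higher with anti-PD1 in *Aire*+/+, 3 of them past 1.5-fold against a background of 114 symbols (1.35%) at that size, and the median log2 ratio was 0.30. In *Aire*-/- 13 were lower with anti-PD1, with a median of -0.14. For the counts by direction alone, no share of all symbols on that side of 0 is given, so they describe the listed genes only. Between genotypes, the median of *Aire*-/- over *Aire*+/+ was -0.012 under isotype and -0.39 under anti-PD1. There 15 were lower and 7 of them past 1.5-fold, against a background of 160 symbols (1.9%) lower at that size. Over all symbols the median was 0.020 in each genotype for treatment. Between genotypes it was 0.024 under isotype and 0.028 under anti-PD1. The list summed to 1289, 1359, 1195 and 1161 CPM in Fcer2a-negative B cells. In T cell barcodes it summed to 1638, 1521, 1680 and 1427 CPM, so the *Aire*+/+ anti-PD1 library was not the highest there. In members the list summed to 1059, 1181, 1036 and 892 CPM. In members the *Aire*+/+ anti-PD1 library was thus the highest and the *Aire*-/- anti-PD1 library the lowest. The difference between the genotypes was not tested.

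Of the 16 genes, 13 were highest in the *Aire*+/+ anti-PD1 library, 11 were lowest in the *Aire*-/- anti-PD1 library and 9 were both. No share over all symbols is given for this order, so these counts describe the listed genes only. Ifi27l2a, the most abundant, stood at 592, 613, 573 and 463 CPM, but in thinned members it had a mean of 1.18, 1.17, 1.09 and 0.911 UMIs, so *Aire*+/+ anti-PD1 was not the highest there. Ifit3, an interferon-induced RNA-binding protein, stood at 10.6, 23.9, 7.39 and 5.78 CPM, and its log2 ratio of anti-PD1 over isotype was 1.17 (95% interval 0.65 to 1.72) in *Aire*+/+. In *Aire*-/- it was -0.36 (95% interval -1.11 to 0.40). Irf7, the factor that amplifies the interferon response, stood at 41.1, 52.8, 42.98 and 26.9 CPM, and Usp18, which damps interferon receptor signalling, at 10.1, 14.8, 7.63 and 5.24 CPM. Ifit3, Irf7 and Usp18 were each highest in the *Aire*+/+ anti-PD1 library and lowest in the *Aire*-/- anti-PD1 library, while the order of the isotype libraries differed among them.

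Antigen presentation genes leaned upward with treatment at a small size. Of 13 MHC class II and costimulation genes, 7 were above in both anti-PD1 libraries and 0 below, against 17.7% and 11.2% of all symbols. The median log2 ratios of the 13 were 0.10 in *Aire*+/+ and 0.046 in *Aire*-/-. Interferon-gamma response genes had 8 above and 1 below of 17. Cd74, the most abundant, stood at 26113, 28068, 28143 and 29028 CPM. These differences were small beside 1.5-fold, which only 1 of the 13 passed, in *Aire*-/-.

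The genes called higher with anti-PD1 were mostly low in level. Syt11, a synaptotagmin of vesicle traffic, stood at 4.43, 9.04, 4.39 and 13.9 CPM, and Kbtbd7, a ubiquitin ligase adaptor, at 3.94, 7.19, 3.70 and 7.95 CPM. Stk3, a kinase of the Hippo pathway, stood at 4.68, 9.27, 3.24 and 5.78 CPM, and in thinned members its ratio in *Aire*-/- was below 0. Gzma, the granzyme of NK and cytotoxic T cells, stood at 5.17, 8.81, 7.86 and 37.2 CPM, from only 4, 1, 3 and 5 members with a UMI and up to 128 UMIs in 1 of them. Gzma thus marks a few barcodes and not the population, and its direction in *Aire*+/+ reversed when members above 2 times the median UMIs were left out. Csf2rb, the common beta chain of the IL-3, IL-5 and GM-CSF receptors, stood at 4.92, 9.04, 3.24 and 5.60 CPM, and Vcl, the adhesion protein vinculin, at 7.63, 12.3, 4.39 and 7.41 CPM. Wfdc17 stood at 9.60, 15.5, 10.2 and 18.2 CPM, and Rhobtb1 was also called. By the same ordering but short of 1.5-fold in both genotypes came 1110032A03Rik, at 4.68, 7.19, 6.01 and 9.21 CPM, and the kinesin gene Kif9, at 3.44, 5.56, 4.85 and 7.41 CPM.

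The 3 symbols called lower with anti-PD1 were Jchain, Igha and Ms4a6c. Jchain and Igha rested in *Aire*-/- on the single isotype barcode with 2090 Jchain UMIs, and without members of 20 or more Jchain UMIs, an alternative chosen after seeing the data, only Ms4a6c was still called. Ms4a6c, a membrane protein of the CD20 family, stood at 13.04, 8.11, 14.3 and 8.67 CPM, lower in both anti-PD1 libraries. Next in order and short of 1.5-fold in at least 1 genotype came Socs5, a cytokine signalling suppressor, at 13.04, 8.34, 10.2 and 6.86 CPM, Zbtb18, a repressor, at 15.5, 10.7, 12.5 and 8.49 CPM, and Esrra, an orphan nuclear receptor, at 11.8, 8.34, 9.71 and 6.50 CPM. Incenp, a scaffold of the chromosomal passenger complex, stood at 13.3, 9.50, 10.4 and 7.05 CPM, and in thinned members its ratio nearer 0, with 1 CPM added, was 0.0017. Cables2 stood at 16.5, 11.4, 16.6 and 11.4 CPM, Gid4 at 27.6, 18.5, 24.5 and 17.9 CPM and Zfp507 at 15.99, 10.4, 15.7 and 11.4 CPM.

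Counts for other programs were as follows, beside 17.7% above and 11.2% below over all symbols. B cell receptor signalling genes had 6 above in both anti-PD1 libraries and 0 below of 20, homing genes 1 and 0 of 14, and BAFF and survival genes 2 and 3 of 12. Transcription factors had 5 and 1 of 18, activation and immediate early genes 3 and 0 of 18, and Toll-like receptor genes 3 and 1 of 11. Follicular markers outside the rule had 0 and 0 of 6, marginal zone markers 1 and 1 of 12, and heat shock genes 0 and 0 of 9. Fos, an immediate early transcription factor, stood at 5.66, 17.8, 19.4 and 9.03 CPM, so the *Aire*+/+ anti-PD1 and *Aire*-/- isotype libraries were both above the other 2. In these, 1 barcode held 22 and 1 held 36 Fos UMIs.

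The treatment differences too have 1 library on each side within a genotype, and they share libraries with the genotype comparisons. At 300 or more UMIs per symbol no gene was called higher, so the 8 calls rest on genes of low counts. In thinned members 8 symbols were higher and 8 lower, and 0 and 2 of them were among those called here. Syt11, Kbtbd7, Stk3, Gzma, Rhobtb1, Csf2rb and Vcl then had too few UMIs to be called. Their ratios nearer 0, with 1 CPM added, were 0.64 for Vcl, 0.63 for Kbtbd7, 0.61 for Rhobtb1 and 0.59 for Csf2rb. Those of Syt11, at 0.40, Gzma, at 0.075, and Stk3, at -0.37, fell short of 1.5-fold. With at least 2 Fcer2a UMIs, 9 were higher and 2 lower, of which 3 and 1 were among those called here.

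Outside the CD45+ spleen libraries the same rule found few cells. Tumor CD45+ libraries held 0, 2, 0 and 2 members, 4 of 9083 barcodes, and tumor CD8+ libraries 0 of 8984. A count of 0, taken as allowing 3 counts of the total, leaves room for a share of up to 0.112%, 0.135%, 0.161% and 0.136% in the CD8+ libraries of the tumor. Spleen CD8+ libraries held 3, 3, 7 and 10, 23 of 10856 barcodes.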

How the data were processed

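The authors deposited UMI counts per gene and barcode for 16 libraries, mapped to GRCm38 per the labels, with barcodes already called as cells. No cells were filtered, and doublets were kept. Table entries that share a gene symbol were summed. Members of the 4 spleen CD45+ libraries were summed per library and scaled to CPM. Symbols with at least 100 UMIs over the members were compared, with 1 CPM added and a threshold of 1.5-fold. The genes named are the 10 per direction with the largest smaller of both within-pair log2 ratios. For members against Fcer2a-negative B cells they are the 12 per direction with the largest fold change at an adjusted p of at most 0.05. That comparison used TMM scaling and edgeR's quasi-likelihood test with the library as block and Benjamini-Hochberg adjustment. It was also run on simulated data, and that outcome is not given here. Barcodes were thinned to 2000 UMIs with seed 1. Intervals are exact Poisson, Clopper-Pearson or conditional binomial, and for folds of shares also the log interval of a ratio of binomial shares. Alternatives covered scaling, filters, pseudocount, depth, doublets, thresholds and DESeq2. The members and gene lists were chosen with earlier results of these data known. A few list genes are counted in their lists and not reported singly here. The tools were Python 3.11.15, numpy 2.4.6, scipy 1.17.1, pandas 2.3.3, matplotlib 3.10.9, R 4.3.3, edgeR 4.0.16 and DESeq2 1.42.0.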

Additional observations from a re-analysis of the deposited data

Results flagged for a closer look

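The rule found members in libraries sorted for CD8+ cells, which should hold no B cells. Of the spleen CD8+ libraries, *Aire*-/- isotype held 7 and *Aire*-/- anti-PD1 held 10, above the 3 that a count of 0 allows. The *Aire*+/+ libraries held 3 each, and no comparison above uses these cells.

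For 5 genes the ratio of anti-PD1 over isotype passed 1.5-fold in opposite directions in the genotypes, with the intervals of both ratios away from 0. On the log2 scale, with 1 CPM added, Ap5b1 had -0.66 in *Aire*+/+ and 0.61 in *Aire*-/-, and Ffar2, a receptor for short-chain fatty acids, had -0.87 and 0.67. Fos had 1.501 and -1.02, Gemin6, a protein of small nuclear RNP assembly, had 0.61 and -0.74, and mt:TrnA had 0.73 and -0.72. Over all 8421 symbols, 7 passed the fold in opposite directions. For the ratio of *Aire*-/- over *Aire*+/+, 5 symbols did so between the treatments, and 2 of them had both intervals away from 0. Fos had 1.62 under isotype and -0.91 under anti-PD1, and Gm6525 had -0.60 and 0.79. In the *Aire*-/- isotype library 1 barcode held 36 of the 84 Fos UMIs. Without the member with most Fos UMIs in each library, a choice made after the data were seen, the treatment ratios of Fos were 1.41 in *Aire*+/+ and -0.41 in *Aire*-/-, the latter short of 1.5-fold. Its genotype ratios were then 1.22 under isotype and -0.59 under anti-PD1. The other genes given here stayed past the fold in opposite directions. Each of these differences between groups was not tested, since every condition has 1 library.

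The type I interferon response genes had a median log2 ratio of anti-PD1 over isotype of 0.30 in *Aire*+/+ and -0.14 in *Aire*-/-, with most genes moving opposite ways in the genotypes. This difference was not tested.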

How the results depend on the processing

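The 32 recomputed folds of shares stayed within the Poisson interval of the reported fold, which is too wide to show stability. By the interval for a ratio of binomial shares, chosen after the data were seen, 31 did, and the fold of anti-PD1 over isotype in *Aire*-/-, 1.06 among barcodes with Cd79a and no Cd3 gene, did not. The genotype fold under isotype changed side, from 1.05 to 0.996 in thinned barcodes and 0.995 without neutrophil, NK and myeloid barcodes, and the cause was not tested. The shares themselves fell when barcodes were thinned, to 35.1%, 37.9%, 35.0% and 40.9%, and with at least 2 Fcer2a UMIs, to 31.9%, 35.05%, 33.9% and 39.2%. With the quality filter, both other scalings and the Fcer2a threshold of 2 UMIs, the 4 counts between conditions stayed within 1.5 times the reported ones. At 2 Fcer2a UMIs the symbols themselves changed, and 12 of 23 higher and 12 of 18 lower in *Aire*-/-, and 3 of 9 higher and 1 of 2 lower with anti-PD1, were among the reported ones.

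At 30 UMIs per symbol in place of 100, 50 symbols were higher and 50 lower in *Aire*-/-, and 21 higher and 15 lower with anti-PD1, over 9800 symbols in place of 8421. At 300 UMIs, 7 were lower in *Aire*-/- and 0 higher with anti-PD1, over 5910 symbols. With 5 CPM added, which shrinks ratios of low genes by construction, 12 were higher and 10 lower in *Aire*-/-, and 0 higher and 0 lower with anti-PD1. The count lower with anti-PD1 was 8 in thinned members, 0 without members above 2 times the median UMIs, and 1 without members of 20 or more Jchain UMIs, an alternative chosen after seeing the data. The cause of the first of these was not tested.

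In members over Fcer2a-negative B cells, DESeq2 called 299 higher and 485 lower, of which 299 and 472 were among the edgeR calls. Thinning before the rule gave 235 and 418. Leaving out each library in turn gave 592 to 790 higher and 854 to 1088 lower, and the lowest counts came without *Aire*-/- anti-PD1. The cause was not tested. Library pairs both populations, since both come from the same sort and library, and the fit without this replicate block gave 515 and 747.

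Of the named genes' ratios between conditions, 386 of 400 stayed within 1.5-fold of the reported ratio, 6 moved further and 8 reversed. In the ratio nearer 0, Stk3 was -0.37 and Incenp 0.0017 in thinned members. Gzma was -2.70, Jchain 0.41 and Igha 0.34 without members above 2 times the median UMIs. Igha was 0.42 with at least 2 Fcer2a UMIs. Without members of 20 or more Jchain UMIs, Jchain was 0.40 and Igha 0.24. Apart from the Jchain alternative, which removes the barcodes holding most Jchain, the cause was not tested. Of the named genes' fold changes over Fcer2a-negative cells, 234 of 245 kept their side of the threshold, and 11 kept their direction but not their side.

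One library per condition limits every comparison between conditions, and intervals cover counting error only. At a median of about 4018 to 4303.5 UMIs per member, genes of low level cannot be followed in single cells, and a missing Fcer2a UMI does not show that a cell lacks CD23.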
